A study of Mus musculus with 4 samples.

Results

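The genes described here make, package and take back 4 fast or modulatory transmitters of the nervous system, namely glutamate, GABA, glycine and serotonin. They were chosen by name as 9 symbols, Slc17a6, Slc17a7, Slc17a8, Gad1, Gad2, Slc32a1, Slc6a5, Slc6a4 and Tph2, and each matched exactly 1 of the 24771 features in the expression table. RNA-seq was performed on PSC-derived SG placodes at day 10 and on mouse submandibular glands (SMGs) at E12.5, with 2 samples in each group. The placode libraries were made from mouse embryonic stem cells of 1 line. The cells were seeded at 3000 per well and kept with 2% Matrigel, given BMP4 at 2 ng/ml on day 3, bFGF at 25 ng/ml with retinoic acid at 1 μM on day 4, and, after transfer on day 6, FGF10 at 200 ng/ml. The labels of the SMGs repeat this culture protocol, although they name the tissue as glands of E12.5 embryos, and the mouse strain, the dissection and any pooling of embryos are not given in the sources used here. Whether the samples of a group came from separate cultures or litters is not stated, so the p-values measure the spread between these samples, which may be technical.

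A neuron is assigned to a transmitter by the few proteins it needs to make it and load it into vesicles. Vesicular glutamate transporters (VGLUTs, the Slc17a6 to Slc17a8 genes) fill vesicles with glutamate. The glutamate decarboxylases encoded by Gad1 and Gad2 make GABA, and the vesicular inhibitory amino acid transporter encoded by Slc32a1 loads both GABA and glycine, while the membrane transporter encoded by Slc6a5 (GLYT2) supplies glycine to inhibitory neurons, mainly of the spinal cord and hindbrain. Tph2 encodes the enzyme that starts serotonin synthesis in neurons, and Slc6a4 encodes the serotonin transporter that clears it. Salivary glands receive a parasympathetic supply that is mainly cholinergic, and a sympathetic supply that is mainly noradrenergic, from ganglia outside the central nervous system.

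Because 5 of the 9 genes were higher in the placodes together, the genomic stretches just before their annotated starts are shown. They are from RefSeq, build GRCm38.p6, in lower case from 5′ to 3′. Each stops before the annotated start, or before the nearest exon base of the gene in GENCODE M21 where that came earlier. An inner start lies within the gene as GENCODE M21 annotates it. Capitals mark CANNTG, the E-box core bound by basic helix-loop-helix factors, and TAATTA, a core bound by many homeodomain factors. Both are palindromes, so both strands were searched at once.
Slc32a1, chr2:158610508-158610757, plus strand: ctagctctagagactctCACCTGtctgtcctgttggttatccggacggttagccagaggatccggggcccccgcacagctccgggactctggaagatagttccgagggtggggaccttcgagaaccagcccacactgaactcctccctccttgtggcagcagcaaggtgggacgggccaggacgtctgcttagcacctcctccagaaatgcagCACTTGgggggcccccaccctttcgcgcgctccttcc
Gad1, inner start, chr2:70561879-70562041, plus strand: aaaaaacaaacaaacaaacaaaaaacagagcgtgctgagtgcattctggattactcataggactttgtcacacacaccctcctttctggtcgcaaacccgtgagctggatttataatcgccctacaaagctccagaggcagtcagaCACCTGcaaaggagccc
Gad2, chr2:22622077-22622204, plus strand: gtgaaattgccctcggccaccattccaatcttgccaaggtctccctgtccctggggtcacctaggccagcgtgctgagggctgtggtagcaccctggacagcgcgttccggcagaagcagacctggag
Slc6a5, upstream start, chr7:49910049-49910145, plus strand: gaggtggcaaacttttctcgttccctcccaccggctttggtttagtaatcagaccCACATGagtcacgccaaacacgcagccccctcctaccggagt
Slc6a5, inner start, chr7:49911450-49911699, plus strand: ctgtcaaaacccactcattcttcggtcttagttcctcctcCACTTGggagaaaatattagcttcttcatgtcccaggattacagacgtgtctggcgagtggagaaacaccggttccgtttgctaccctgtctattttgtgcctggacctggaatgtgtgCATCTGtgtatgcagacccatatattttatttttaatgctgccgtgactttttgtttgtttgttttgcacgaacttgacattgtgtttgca
Slc17a6, upstream start, chr7:51621580-51621829, plus strand: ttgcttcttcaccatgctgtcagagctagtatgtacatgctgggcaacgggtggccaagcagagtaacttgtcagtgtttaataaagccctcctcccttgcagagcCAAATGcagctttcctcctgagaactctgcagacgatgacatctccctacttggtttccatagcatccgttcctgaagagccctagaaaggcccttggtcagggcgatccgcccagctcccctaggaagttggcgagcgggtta
Slc17a6, inner start, chr7:51624387-51624636, plus strand: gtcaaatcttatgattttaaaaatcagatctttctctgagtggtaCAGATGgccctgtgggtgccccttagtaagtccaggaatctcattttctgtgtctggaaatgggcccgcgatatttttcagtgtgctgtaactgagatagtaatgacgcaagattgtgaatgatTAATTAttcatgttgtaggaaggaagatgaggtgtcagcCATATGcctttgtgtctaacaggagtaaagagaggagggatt
All 9 genes had at least 1 window of 300 bases (250 before and 50 after a start) in the RefSeq table, 12 windows in total. CANNTG occurred in 12 of these 12 windows and in 72.3% of all 32851 windows, so most windows of either kind held it. Of its narrower forms, CAGCTG occurred in 2 windows (Slc6a4, and Tph2 after its start) and CAGATG, read on either strand, in 4 (the inner starts of Slc17a6, Slc17a8 and Slc6a5, and Gad2). The shares of all windows were 16.3% and 17.2%. TAATTA occurred in 2 windows, at the inner starts of Slc17a6 and Slc17a8, and in 5.29% of all windows. In the Slc17a6 sequence it begins 81 bases before the start. The CAGATG of Gad2 begins 76 bases before its start, in annotated exon sequence that is not printed. These matches describe letters in the windows and were not tested for binding.

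Levels are given as FPKM, the sequenced fragments of a gene scaled to its transcript length and to the mapped reads of the sample. The inhibitory genes were present at FPKM values of 12 to 22.4 in the placodes and close to 0 in the SMGs. Slc32a1 (ENSMUSG00000037771, chromosome 2 of GRCm38 from 158610767 to 158615748, plus strand) was the most abundant of the 9 genes in the placodes. Its FPKM was 22.4 and 22.0 in placode samples 1 and 2, against 0.0208 and 0 in SMG samples 1 and 2. The placode samples lay far above both SMG samples, and the log2 fold change of FPKM + 1 was 4.52 (standard error 0.09, limma adjusted p = 3.21e-07). Exons of Slc32a1 share bases with the opposite-strand gene Gm14205 in GENCODE M21, and strand use in the counting is not given in the sources used here.

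Gad1 (ENSMUSG00000070880, chromosome 2 from 70553072 to 70602014) encodes GAD67, the form that makes most of the GABA in neurons. Its FPKM was 18.3 and 19.2 in the placodes and 0 and 0.0355 in the SMGs. The groups did not overlap, with a log2 fold change of 4.28 (standard error 0.10, limma adjusted p = 4.28e-07). Gad2 (ENSMUSG00000026787, chromosome 2 from 22622205 to 22693874) encodes GAD65, a form enriched at nerve terminals. It had an FPKM of 12.8 and 14.0 in the placodes, against 0.0188 and 0 in the SMGs. The log2 fold change was 3.83 (standard error 0.10, limma adjusted p = 7.20e-07). Gad1 exceeded Gad2 in each placode sample, by a ratio of 1.43 in sample 1 and 1.37 in sample 2.

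Slc6a5 (ENSMUSG00000039728, chromosome 7 from 49910146 to 49963856) marks neurons that release glycine. It was at 14.0 and 12.01 FPKM in the placodes and at 0.0312 and 0.0840 in the SMGs. The log2 fold change was 3.72 (standard error 0.11, limma adjusted p = 1.13e-06). Its level was 0.623 times that of Slc32a1 in placode sample 1 and 0.546 times in sample 2, both measured in FPKM.

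Among the vesicular glutamate transporters, only Slc17a6 reached an FPKM of 1 in any sample. Slc17a6 (ENSMUSG00000030500, chromosome 7 from 51622006 to 51671119) encodes VGLUT2, the form that predominates in the brainstem and spinal cord. Its FPKM was 3.61 and 3.78 in the placodes and 0.0304 and 0 in the SMGs. The groups were far apart, with a log2 fold change of 2.21 (standard error 0.11, limma adjusted p = 7.81e-06). Slc17a7 (VGLUT1, the main form of the cerebral cortex) was at 0.255 and 0.201 FPKM in the placodes and 0.130 and 0.0364 in the SMGs. These values did not overlap between the groups but were too low for the test. Slc17a8 (VGLUT3) was at 0.0514 and 0.0411 in the placodes and 0.0436 and 0.0450 in the SMGs, so its groups overlapped.

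Serotonin genes were near the bottom of the scale in both groups. Slc6a4 had an FPKM of 0.300 and 0.507 in the placodes and 0.560 and 0.337 in the SMGs, and the groups overlapped. It was nevertheless the highest of the 9 genes in both SMG samples. Tph2 was at 0.0564 and 0.0633 FPKM in the placodes, while neither SMG sample had a value above 0. Tph1, which makes serotonin outside the brain, was listed at 0 in all 4 samples.

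**Figure D1:**
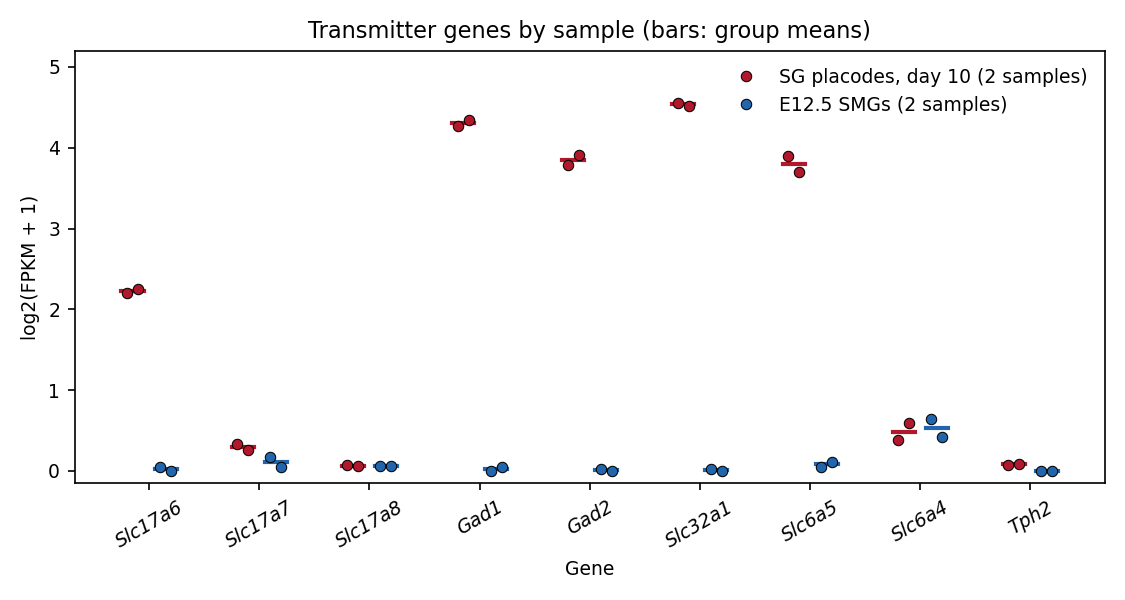
Expression of the 9 transmitter genes as log2(FPKM + 1) on the vertical axis, with a point for each of the 4 samples and a bar for each group mean. Slc17a6, Gad1, Gad2, Slc32a1 and Slc6a5 are high in both placode samples and near 0 in both SMG samples, whereas Slc17a7, Slc17a8, Slc6a4 and Tph2 are low in both groups.

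In the placodes, the order of levels from the highest was Slc32a1, Gad1, Gad2, Slc6a5, Slc17a6, Slc6a4, Slc17a7, Tph2 and Slc17a8. Neighbours in this order did not overlap between samples, with the exception of Gad2 and Slc6a5, whose sample values interleaved. FPKM is scaled to transcript length, so these levels can be set side by side between genes. The annotation and FPKM software are not given, so the lengths used are unknown and the ratios are approximate. Slc32a1 was 6.20 and 5.81 times as abundant as Slc17a6 in placode samples 1 and 2, and Gad1 was 5.06 and 5.08 times as abundant. With 2 samples, the order is a description and was not tested. In the SMGs, Slc6a4 lay above all the other genes in both samples, and most of the remaining neighbours overlapped.

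A total of 5 of the 9 genes had a mean FPKM of at least 1 over the 4 samples and entered the test, and all 5 of those tested were higher in the placodes. Among all 13193 tested features, 35.7% were called higher in the placodes, 40.4% lower and 76.2% in either direction. The 5 genes passed the minimum through their placode values alone, so a difference between the groups was built into their selection and their count carries no further weight. The groups did not overlap for these 5 genes nor for Slc17a7 and Tph2, and 88.4% of all tested features showed no overlap. The fold changes depend on the pseudocount, since the SMG values were close to 0. With FPKM + 0.01 in place of FPKM + 1, the log2 fold change ranged from 7.53 for Slc17a6 to 10.3 for Slc32a1. For a single gene, the smallest two-sided p that exact permutation of the 4 samples allows is 0.333.

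Markers of several cell types also differed between the groups, and their part in the differences above was not tested. Beside the counts below, 35.7% of all tested features were called higher in the placodes, 40.4% lower and 76.2% in either direction. All 11 pan-neuronal markers were higher in the placodes, where their summed FPKM was 1393 and 1413, against 125 and 113 in the SMGs. The 7 neural progenitor markers were higher too, with sums of 771 and 801 against 51.1 and 45.7. Markers of autonomic neurons were mixed (4 higher, 2 lower and 1 not past the threshold of 7) and had like sums, 51.8 and 48.3 against 51.9 and 48.1. Of 9 glial and Schwann precursor markers, 4 were tested, with 3 lower in the placodes and 1 higher, sums of 15.48 and 15.03 against 43.44 and 39.96, and Olig2 at 0 in the SMGs. Of 10 epithelial markers, 7 were lower, 1 (Krt19) was higher and 2 (Krt8 and Krt18) did not pass the threshold. Their sums were 73.4 and 80.2 against 635 and 604. Krt5, Krt14 and Krt15, which define basal epithelium, were listed at 0 in both placode samples. Krt19 was at 14.7 and 15.8 FPKM in the placodes against 9.78 and 6.53 in the SMGs. All 9 mesenchyme markers were lower, with sums of 212 and 208 against 2152 and 2099. Of 8 mast cell and platelet markers, Pf4 alone was tested and was lower, with list sums of 0.694 and 0.681 against 5.79 and 5.90. For tested markers with a group mean below 1 FPKM, the minimum fixed the direction. Such a mean was found in the SMGs for 2 pan-neuronal, 4 neural progenitor and 1 autonomic marker. It was found in the placodes for 5 epithelial markers. The autonomic, glial, mesenchyme, and mast cell and platelet lists each held 1 such marker in the placodes. In bulk samples, more cells of a type and more RNA per cell cannot be told apart.

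To set the 9 genes beside the neuronal RNA of each sample, their levels were divided by the summed pan-neuronal markers of that sample. Per 100 FPKM of these markers, the 9 genes together amounted to 5.15 and 5.08 FPKM in the placodes and 0.668 and 0.477 in the SMGs. Slc32a1 was at 1.61 and 1.56 in the placodes against 0.0166 and 0, and Gad1 at 1.31 and 1.36 against 0 and 0.0314. The placode samples lay above the SMG samples for both genes on this scale, as they did for Gad2, Slc6a5 and Slc17a6. The FPKM of these 5 genes was so close to 0 in the SMGs that the division could not have reversed their order. Nothing further is therefore read from it. The mean marker sum of the placodes was 11.8 times that of the SMGs, so on this scale any gene raised by less than that ratio comes out higher in the SMGs. That holds for Slc6a4, Slc17a7 and Slc17a8, which were low in FPKM in both groups, and nothing is read from their order. Slc6a4 was at 0.0215 and 0.0359 in the placodes and 0.448 and 0.299 in the SMGs.

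Of the 7 genes of acetylcholine and catecholamine transmission, the transmitters of autonomic nerves, 3 were tested, 2 of them higher in the placodes and 1 lower. The shares over all tested features were 35.7% and 40.4%. Slc18a3 passed the minimum through the placodes alone and Dbh through the SMGs alone, which fixed their direction. Only Th had both group means at 1 FPKM or more. Dbh, whose enzyme makes noradrenaline, had an FPKM of 0.0995 and 0.0733 in the placodes and 5.26 and 3.79 in the SMGs, where it was higher (log2 fold change -2.33, limma adjusted p = 2.58e-05). Slc18a3, the vesicular acetylcholine transporter gene, was at 4.07 and 4.24 FPKM in the placodes and 0.824 and 0.538 in the SMGs (log2 fold change 1.62, limma adjusted p = 5.15e-05). Th, which starts catecholamine synthesis, was at 3.49 and 2.78 FPKM in the placodes and 1.27 and 0.975 in the SMGs (log2 fold change 0.96, limma adjusted p = 8.96e-04). Per 100 FPKM of pan-neuronal markers, Slc18a3 was at 0.293 and 0.300 in the placodes against 0.659 and 0.476 in the SMGs, and Th at 0.2503 and 0.197 against 1.02 and 0.863. Both genes were raised in the placodes by less than the marker sum, so this scaling alone places them higher in the SMGs.

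**Figure D2:**
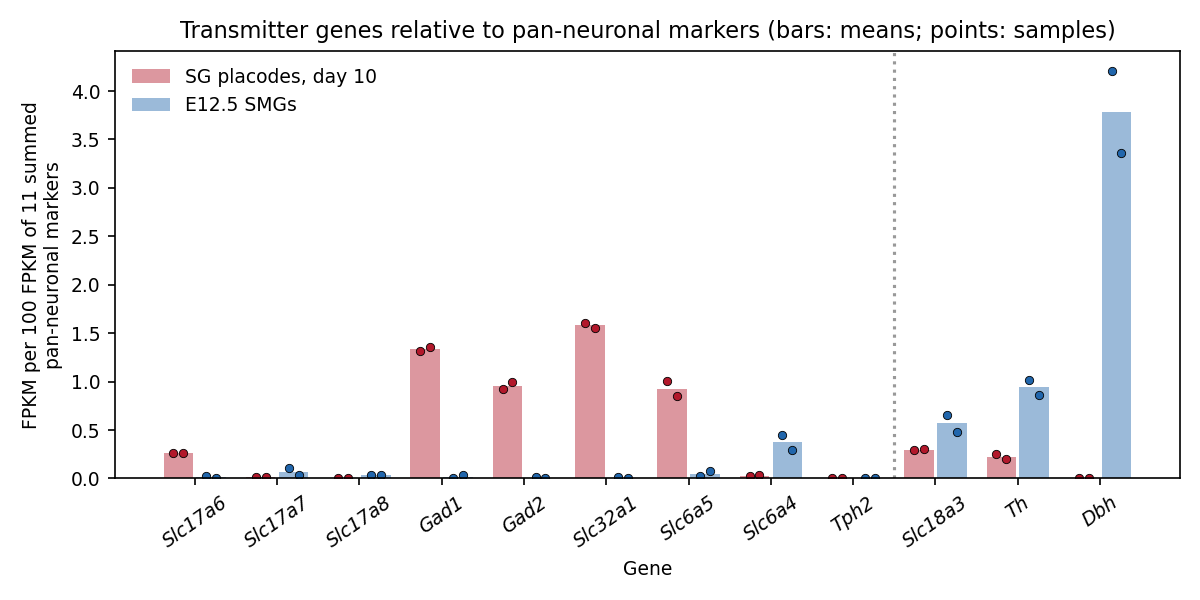
FPKM of each gene per 100 FPKM of 11 summed pan-neuronal markers in the same sample, with bars for group means from 0 and points for the 2 samples of each group. Left of the dotted line, Slc32a1, Gad1, Gad2, Slc6a5 and Slc17a6 are higher in the placodes, and Slc6a4, Slc17a7 and Slc17a8, low in FPKM in both groups, are higher in the SMGs. Right of it, Slc18a3, Th and Dbh are higher in the SMGs on this scale, although the FPKM of Slc18a3 and Th is higher in the placodes.

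Beyond the 9 genes, receptors, uptake carriers and enzymes of the 4 transmitters were taken as 7 lists of 95 genes in all. Of these, 45 were tested, 33 were higher and 9 lower in the placodes, with a median log2 fold change of 1.08. Over all tested features the median was -0.05. Called genes made up 93.3% of those tested, beside 76.2% of all features, and those higher made up 73.3%, beside 35.7%. A group mean below 1 FPKM was found in the SMGs for 15 of the 45 genes and in the placodes for 2, and these genes passed the minimum only through the other group, which fixes their direction. Of the 28 genes with both means at 1 FPKM or more, 18 were higher, 7 were lower and 3 did not pass the threshold.

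For glutamate, 10 of 12 tested ionotropic receptor genes were higher and 2 (Gria3 and Grik4) were lower, out of 18 listed, with a median log2 fold change of 1.55. Grik3, a kainate receptor subunit, rose most in this list. Its FPKM was 37.9 and 39.5 in the placodes and 2.41 and 2.76 in the SMGs (log2 fold change 3.47, standard error 0.08, limma adjusted p = 4.39e-07). Grik5, a partner subunit of kainate receptors, had the highest mean in both groups, at 37.6 and 40.4 FPKM against 19.3 and 18.1, although its placode samples overlapped those of Grik3. Gria3, an AMPA receptor subunit, was lower in the placodes, at 4.73 and 4.72 FPKM against 16.8 and 15.7 (log2 fold change -1.59, limma adjusted p = 6.53e-06). Of the 8 metabotropic receptor genes, 3 were tested and all 3 were higher, but all 3 passed the minimum through the placodes alone, so the filter set this outcome. Their median log2 fold change was 2.27. Grm4 was the most abundant of them in the placodes, at 6.82 and 7.41 FPKM against 0.705 and 0.661. Grm2 was at 4.88 and 5.28 FPKM against 0.0267 and 0 (log2 fold change 2.58, limma adjusted p = 4.08e-06), and Grm3 had the smallest change, 1.08. Grm7, the highest metabotropic receptor gene in the SMGs, was at 0.737 and 1.51 FPKM there and at 0.199 and 0.225 in the placodes, and was not tested.

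In the list of glutamate uptake and the glutamine cycle, 5 of 8 tested genes were higher, 1 was lower and 2 did not pass the threshold, with a median log2 fold change of 0.33. Slc1a2, the glutamate carrier of astrocytes and radial glia known as GLT-1, was at 10.8 and 11.5 FPKM in the placodes and 0.261 and 0.152 in the SMGs (log2 fold change 3.33, limma adjusted p = 1.33e-06). Slc38a2, a glutamine carrier of many cell types, had the highest level of the list in each group, with 68.6 and 80.1 FPKM against 86.6 and 83.1, and did not pass the threshold (limma adjusted p = 0.0658).

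For GABA, 5 of 6 tested genes of uptake, breakdown and chloride transport were higher and 1 was lower, out of 8 listed, with a median log2 fold change of 1.44. Abat, the GABA-degrading transaminase, led the list in each group, at 32.4 and 33.6 FPKM against 18.2 and 18.1 (log2 fold change 0.83, limma adjusted p = 2.22e-05). Of the chloride carriers that set whether GABA excites or inhibits, the chloride importer gene Slc12a2 (NKCC1) was at 8.24 and 8.17 FPKM in the placodes and 15.1 and 14.9 in the SMGs (log2 fold change -0.80, limma adjusted p = 6.95e-05). The chloride exporter gene Slc12a5 (KCC2), named after its values were seen, was at 13.1 and 14.5 FPKM against 2.82 and 2.29 (log2 fold change 2.05, limma adjusted p = 1.00e-05). Slc12a5 therefore exceeded Slc12a2 in the placode samples, by ratios of 1.59 and 1.77, and lay below it in both SMG samples, at ratios of 0.187 and 0.154. These ratios are over all cells of the bulk samples, and which cells held the RNA was not tested. They therefore do not show how GABA acts in either group.

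Of 21 GABA receptor genes, 6 were tested, 4 were higher and 2 were lower, with a median log2 fold change of 1.02. Gabbr1, a subunit of the metabotropic GABA-B receptor, was the most abundant in both groups, at 51.8 and 54.3 FPKM in the placodes and 19.4 and 19.1 in the SMGs (log2 fold change 1.42, limma adjusted p = 2.32e-06). Gabra3, the α3 subunit and 1 of the 2 lower genes, changed by -0.26 (limma adjusted p = 0.0427), and its call held under 1 of the 12 alternatives that tested it.

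For glycine, all 5 tested genes of the 7 listed were higher, with a median log2 fold change of 1.14. The filter fixed this for Glra1 and Glra2, which passed it through the placodes alone, and not for the other 3 genes. Glra1, the α1 subunit of the glycine receptor, was at 6.29 and 7.15 FPKM in the placodes, and Glra2, a fetal α subunit, at 2.98 and 2.79. Both SMG samples list either gene at 0. Gphn, which encodes gephyrin, the scaffold of inhibitory synapses, had the highest level of the list in each group, at 15.1 and 16.6 FPKM against 7.29 and 7.15. Glrb, the β subunit that binds gephyrin, had the smallest change, at 6.82 and 6.93 FPKM against 3.78 and 4.22 (log2 fold change 0.66, limma adjusted p = 8.15e-04).

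For serotonin, 1 of 5 tested genes was higher and 3 were lower, out of 21 listed, with a median log2 fold change of -1.59. Ddc, the decarboxylase shared by serotonin and dopamine synthesis, was at 1.92 and 3.09 FPKM in the placodes and 19.7 and 15.7 in the SMGs (log2 fold change -2.43, limma adjusted p = 4.58e-05). The other lower genes were Htr7 and Maoa. Slc18a2, the vesicular transporter of all monoamines, was higher in the placodes, at 7.05 and 6.24 FPKM against 1.87 and 1.40 (log2 fold change 1.54, limma adjusted p = 6.88e-05). Qdpr, which recycles the cofactor of the hydroxylases, led the list in each group, at 42.2 and 39.2 FPKM against 39.7 and 38.3, and its groups overlapped (limma adjusted p = 0.374). Fev, the transcription factor that defines serotonin neurons, had no value above 0 in the placodes and was at 0 and 0.0242 FPKM in the SMGs.

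**Figure D3:**
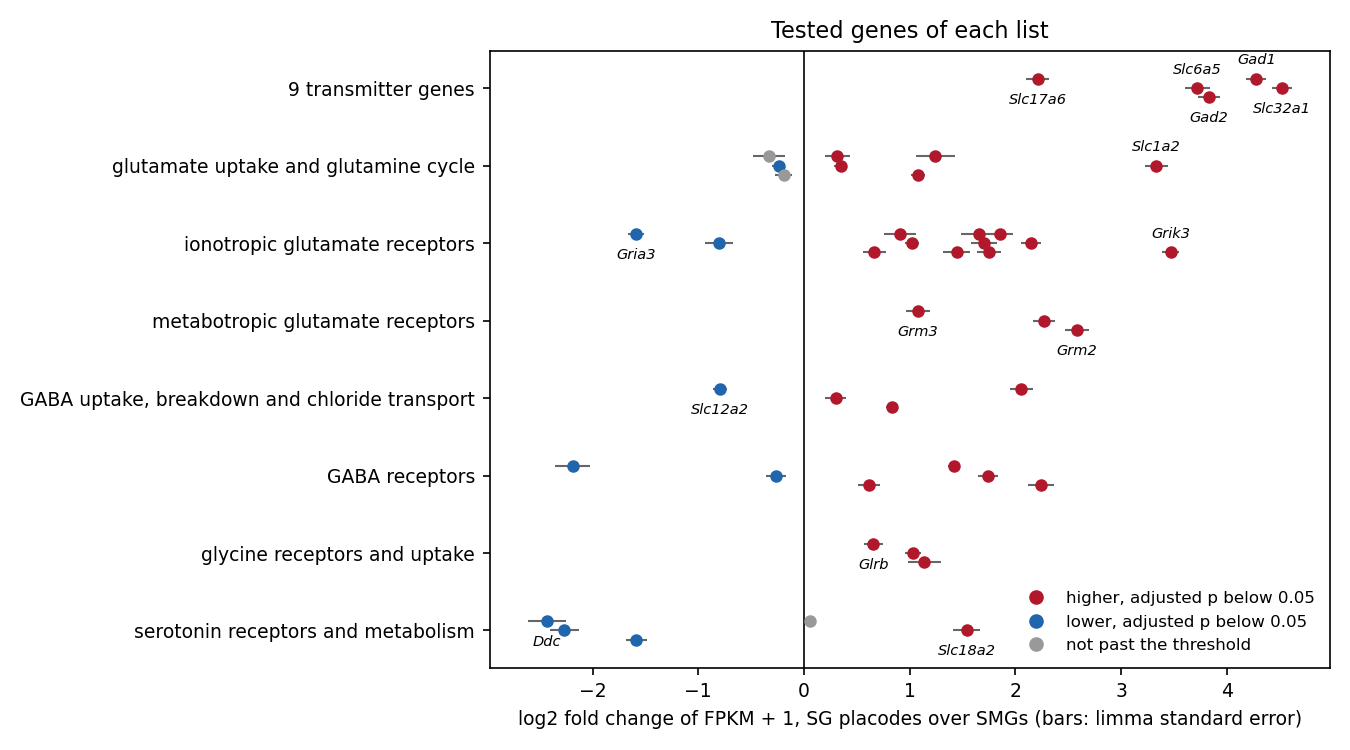
Log2 fold change of FPKM + 1 (placodes over SMGs) on the horizontal axis for the tested genes of each list, with limma standard errors and colours for calls. Of the 45 tested genes of the 7 lists, 41 are drawn, since 4 genes listed at 0 in both SMG samples are left out. The 5 tested transmitter genes lie between 2.21 and 4.52, and the serotonin list is the row with most of its points left of 0.

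**Figure D4:**
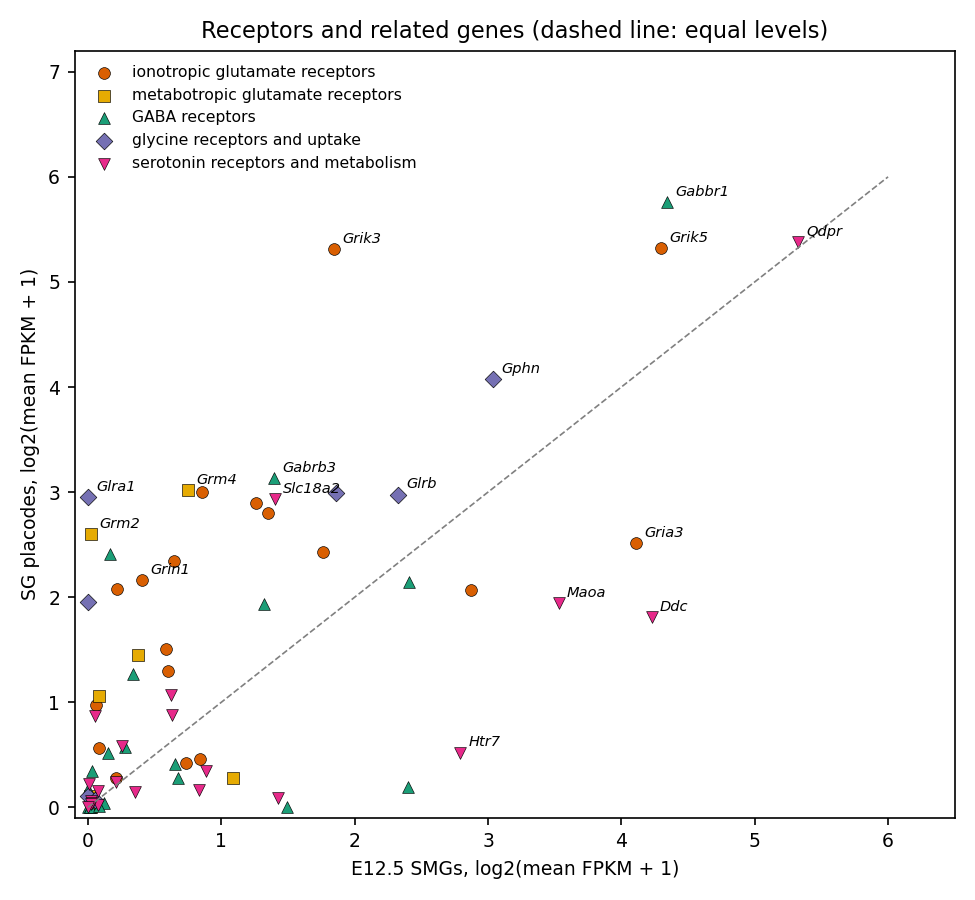
Mean level of each listed receptor or related gene in the SMGs (horizontal axis) and in the placodes (vertical axis), both as log2(mean FPKM + 1) of 2 samples. Grik3, Grm2 and Glra1 lie far above the line of equal levels, and Gria3, Htr7 and Ddc lie below it.

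Of 12 transcription factors that assign transmitter identity in the hindbrain and spinal cord, 10 entered the test, 7 higher in the placodes and 2 lower. The shares over all tested features were 35.7% and 40.4%. The SMG mean was below 1 FPKM for 6 of the 10, and the placode mean for 2. These genes passed the minimum through 1 group alone, which fixed their direction. Of the 2 with both means at 1 FPKM or more, 1 was higher and 1 lower. Lhx1, found in many inhibitory interneurons, was the most abundant, at 99.95 and 104.8 FPKM against 0.0262 and 0.0136, while Tlx1 was the highest in the SMGs, at 7.35 and 5.68 FPKM against 0.875 and 1.35 in the placodes. The genes with levels most like those of the 5 tested members were sought by Euclidean distance over log2(FPKM + 1) in the 4 samples, and 3 were taken for each. Nearest to Slc32a1 were Pax5 (distance 0.06), Sall3 (0.12) and Sp8 (0.15). Nearest to Gad2 were Neurod4 (0.08), Neurog2 (0.15) and Nrxn3 (0.16), and nearest to Slc6a5 were Prdm13 (0.17), Onecut1 (0.17) and Neurog2 (0.20). Gad1 lay closest to Esrrb, Fam181a and Prl7d1, at distances from 0.16 to 0.20, and Slc17a6 to Klhdc8a, Csmd2 and Adgra1, at distances from 0.11 to 0.16. With 4 samples in 2 groups, such nearness reflects like levels only.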

How the data were processed

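Total RNA of 2 samples of SG placodes and 2 of E12.5 SMGs was sequenced with paired ends (Illumina). The authors used HISAT2 for mapping, and the deposited values are FPKM per gene. GRCm38 is among the builds in the submitters' processing notes, and the HISAT2 version, annotation, strand setting and FPKM software are not given in the sources used here. Read counts could not be recovered, so the depth is unknown and no counting interval is given. FPKM summed to between 361963 and 384773 per sample, and 10 of 10 housekeeping genes were above 0 in every sample.

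The features with a mean FPKM of at least 1 were tested as log2(FPKM + 1) with limma 3.58.1 in R 4.3.3 (eBayes with trend, two-sided, group as the only term). Benjamini-Hochberg adjustment ran over all 13193 tested features, and a feature was called at an adjusted p below 0.05. Gene positions and shared exons were taken from GENCODE M21 (GRCm38), where all 184 listed genes were found by identifier, and start windows from RefSeq (GRCm38.p6). No replicate block, set test or resampling was used in the reported fit.

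The members and lists were chosen with earlier results of these data known. Named genes are the 9 members, in each list the highest gene of each group and the called genes with the highest and lowest fold change, and the 3 nearest genes of each tested member. A few genes that this rule names are not reported here. Slc12a5, Grik4, Gabra3, Glra2, Htr7, Maoa, Tph1, Fev and Th were named after their values were seen. Alternatives changed the pseudocount, the scaling, the minimum, the variance trend, a replicate block or the samples used. No batch or date was labelled, so a batch and the group cannot be told apart.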

Additional observations from a re-analysis of the deposited data

How the results depend on the processing

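The 5 tested transmitter genes were called under each of 13 alternatives, except that Slc17a6 was not tested at a minimum mean FPKM of 5. At a pseudocount of 1, their log2 fold changes stayed within 4.24 to 4.31 for Gad1, 3.77 to 3.89 for Gad2, 4.51 to 4.55 for Slc32a1, 3.62 to 3.82 for Slc6a5 and 2.18 to 2.24 for Slc17a6. With no minimum of mean FPKM, Tph2 was called as well, at a log2 fold change of 0.08 (limma adjusted p = 4.79e-03). Its FPKM was only 0.0564 and 0.0633 in the placodes and 0 in both SMG samples, so nothing is read from that call. Slc17a7, Slc17a8 and Slc6a4 were not called. At a detection level of 0.1 FPKM, 7 of the 9 genes were detected in the placodes and 1 in the SMGs, against 5 and 0 at 1 FPKM and 4 and 0 at 5 FPKM. The deviations of same-numbered samples from their group means had a correlation of -0.03 over 13193 features. With 2 samples in each group this is a single value, so it cannot show whether the numbers pair the samples. With the replicate block 5 members were called, and GABA receptor genes called lower numbered 1 instead of 2.

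The number of GABA receptor genes called lower was also 1 with either other pseudocount, with an equal sum per sample, with median-ratio scaling and with quantile normalization. Leaving out 1 sample at a time, it was 1 each time, and glutamate uptake genes called lower ranged from 0 (without SMG sample 1) to 1. Under quantile normalization the latter numbered 2. A minimum mean FPKM of 5 tested fewer genes and left 2 ionotropic glutamate receptor genes higher and 1 lower, 0 metabotropic receptor genes higher, 1 GABA receptor gene higher and 0 lower, 2 glycine genes higher, 0 serotonin genes higher, 4 identity factors higher and 0 lower, and 0 cholinergic and catecholaminergic genes higher or lower. With no minimum, 1 metabotropic receptor gene was lower, 0 glutamate uptake genes were lower, 8 GABA receptor genes were higher, 4 serotonin genes were higher and 6 lower, and 2 cholinergic and catecholaminergic genes were lower. The other 285 of 315 values kept their direction and their side of the threshold, or, for counts, stayed within 1.5 times the reported count. The cause of these changes was not tested, apart from the number of genes tested. The median log2 fold change of all tested features moved from -0.05 to 0.01 with an equal sum per sample or median-ratio scaling.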

Other observations

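Some receptor genes that were too low for the test, picked out here after their values were seen, were higher in both SMG samples than in either placode sample. Gabrp, the π subunit of GABA-A receptors known from epithelial tissues, had an FPKM of 2.18 and 1.46 in SMG samples 1 and 2 and was listed at 0 in both placode samples. Htr3a, a subunit of the serotonin-gated ion channel, was at 1.71 and 1.67 FPKM in the SMGs and at 0.122 and 0 in the placodes.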
